A study of Homo sapiens with 41 samples.

Results

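RAD21 is a subunit of the cohesin ring, and the report covers its chromatin immunoprecipitation peaks in T47D cells that had been returned to isotonic medium after hyperosmotic stress. The 6 RAD21 peak lists compared were chosen by their titles from the 41 samples of the series, of which 29 have a peak list. T47D is an established luminal cell line from a human breast carcinoma. All cells had been kept in medium stripped of steroid hormones and then without serum, which holds them in G0/G1. The recovery group (3 libraries) had 1 h of 110 mM NaCl followed by 1 h of isotonic medium. The stressed group (3 libraries) was collected after 1 h of 110 mM NaCl, and 3 RAD21 libraries from cells without stress served as the no-stress state. None of these 9 libraries is titled with triptolide, an inhibitor of transcription initiation. The labels do not say whether replicates came from separate cultures, so the spread between libraries may be technical.

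Replicates 1 and 2 of each group belong to one submission, set 1, and replicate 3 to a second submission, set 2. The pre-treatment tag of recovery replicate 3 names 500 nM triptolide, against its title, which was followed here. The same tag stands on the only CTCF recovery library and on a further RAD21 recovery library that is also titled with triptolide. Several results are therefore given without it as well. A list holds only peaks past the caller's threshold, and a missing peak is a site below that threshold. Fewer cells with cohesin at a site and less cohesin at the site in every cell cannot be told apart.

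Cohesin is loaded on chromatin, extrudes loops and is stopped mainly at sites bound by CTCF, a zinc finger protein. RAD21 peaks therefore mark loop anchors and CTCF sites, and a smaller number lie at active promoters. CTCF reads a long motif through several of its zinc fingers, and a core of it was searched here: CC, any 3 bases, AG, any 2 bases, then GGC.

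The sequences of promoters that lay under RAD21 sites show the setting of the peaks. They are RefSeq windows of GRCh38.p14, each from 250 bases before to 50 bases after a gene start, 5′ to 3′ on the gene's strand, and capitals mark matches to this core on either strand. The 2 sites of each kind with the highest lowest percentile of fold enrichment are shown, among those with every summit and a match inside the window. The windows of MYLIP, which encodes an E3 ubiquitin ligase for lipoprotein receptors, and of ZNF536, a zinc finger gene, lay under a site with a RAD21 peak in all 3 recovery and in none of the 1 h libraries. Those of ALKBH2, a DNA repair dioxygenase, and SAT1, an acetyltransferase of polyamine breakdown, lay under a site of all 6. The ZNF536 window belongs to one of several RefSeq starts of that gene and is not within 1 kb of its outer ends, on which the counts near genes rest. The windows are chr6:16128836-16129135 (plus strand) for MYLIP, chr19:30227638-30227937 (plus) for ZNF536, chr12:109093423-109093722 (minus) for ALKBH2 and chrX:23782923-23783222 (plus) for SAT1.
MYLIP: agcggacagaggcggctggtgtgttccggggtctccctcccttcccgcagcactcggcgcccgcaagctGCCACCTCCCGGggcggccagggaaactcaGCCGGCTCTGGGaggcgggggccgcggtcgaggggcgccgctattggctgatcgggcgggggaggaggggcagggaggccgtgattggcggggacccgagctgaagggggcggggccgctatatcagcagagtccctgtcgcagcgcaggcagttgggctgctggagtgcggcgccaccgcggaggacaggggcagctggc
ZNF536: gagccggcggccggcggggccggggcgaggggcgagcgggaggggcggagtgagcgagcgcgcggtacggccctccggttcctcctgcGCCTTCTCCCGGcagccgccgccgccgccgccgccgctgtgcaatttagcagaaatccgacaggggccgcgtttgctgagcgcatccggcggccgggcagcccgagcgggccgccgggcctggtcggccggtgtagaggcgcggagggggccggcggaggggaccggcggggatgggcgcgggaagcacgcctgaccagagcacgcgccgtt
ALKBH2: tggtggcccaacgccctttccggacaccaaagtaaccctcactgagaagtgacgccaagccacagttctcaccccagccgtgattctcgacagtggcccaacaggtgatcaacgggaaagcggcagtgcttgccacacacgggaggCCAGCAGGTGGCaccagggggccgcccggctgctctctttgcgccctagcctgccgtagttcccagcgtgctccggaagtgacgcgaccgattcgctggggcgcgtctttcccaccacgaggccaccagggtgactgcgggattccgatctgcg
SAT1: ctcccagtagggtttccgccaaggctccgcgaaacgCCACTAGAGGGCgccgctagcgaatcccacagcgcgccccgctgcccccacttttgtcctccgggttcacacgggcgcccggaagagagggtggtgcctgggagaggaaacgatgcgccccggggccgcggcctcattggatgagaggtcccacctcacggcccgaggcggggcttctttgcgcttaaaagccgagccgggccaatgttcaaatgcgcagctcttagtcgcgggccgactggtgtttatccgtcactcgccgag

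The fold enrichment at the MYLIP site, a ratio to the caller's background that the authors deposited for each peak, was 7.54, 16.1 and 4.62 in recovery replicates 1 to 3, against no peak at 1 h and 18.3, 12.2 and 9.81 without stress. The ZNF536 site had 5.22, 21.4 and 5.55 in recovery, against no peak at 1 h and 14.0, 15.5 and 8.19 without stress. Both sites were thus listed in every no-stress library, missing at 1 h and listed again in every recovery library. The SAT1 site had 8.99, 33.7 and 10.9 in recovery, against 8.72, 16.4 and 11.1 at 1 h and 20.2, 20.7 and 20.1 without stress. Its 3 recovery values overlapped the 3 values at 1 h. Counted from the start of the window's transcript, the MYLIP summits lay at -198 to -175 bp and the first match at -181 bp. In ZNF536 the summits lay at -158 to -65 bp and the match at -162 bp. A match was present in 13 of the 53 start windows under sites of all recovery and no 1 h libraries (24.5%) and in 52 of the 142 windows under sites of all 6 libraries (36.6%). Of all 22131 windows of that length 12.4% held one, and of the 1896 under no-stress CTCF sites 29.3%. A match is a description of the letters and not a binding site.

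The lists differed in length more within the recovery group than between groups. On chromosomes 1 to 22 and X recovery had 4397, 20400 and 6492 peaks in replicates 1 to 3, against 4761, 7843 and 6630 at 1 h NaCl. The no-stress libraries had 18297, 13762 and 24931. Recovery replicate 2 was as long as a no-stress list, while replicates 1 and 3 were slightly shorter than the 1 h lists of the same number. The log2 ratio of recovery to 1 h was 0.41 (exact 2-sided permutation test, p = 0.9, Benjamini-Hochberg adjusted p = 0.9 over 9 tests), 0.63 within set 1 and -0.030 within set 2, and without recovery replicate 2 it was -0.23. With 3 libraries against 3 the smallest p this test can give is 0.1, so no comparison could pass 0.05. The median fold enrichment of all peaks was 6.80, 8.34 and 5.67 in recovery, against 7.00, 7.36 and 6.52 at 1 h.

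**Figure D1:**
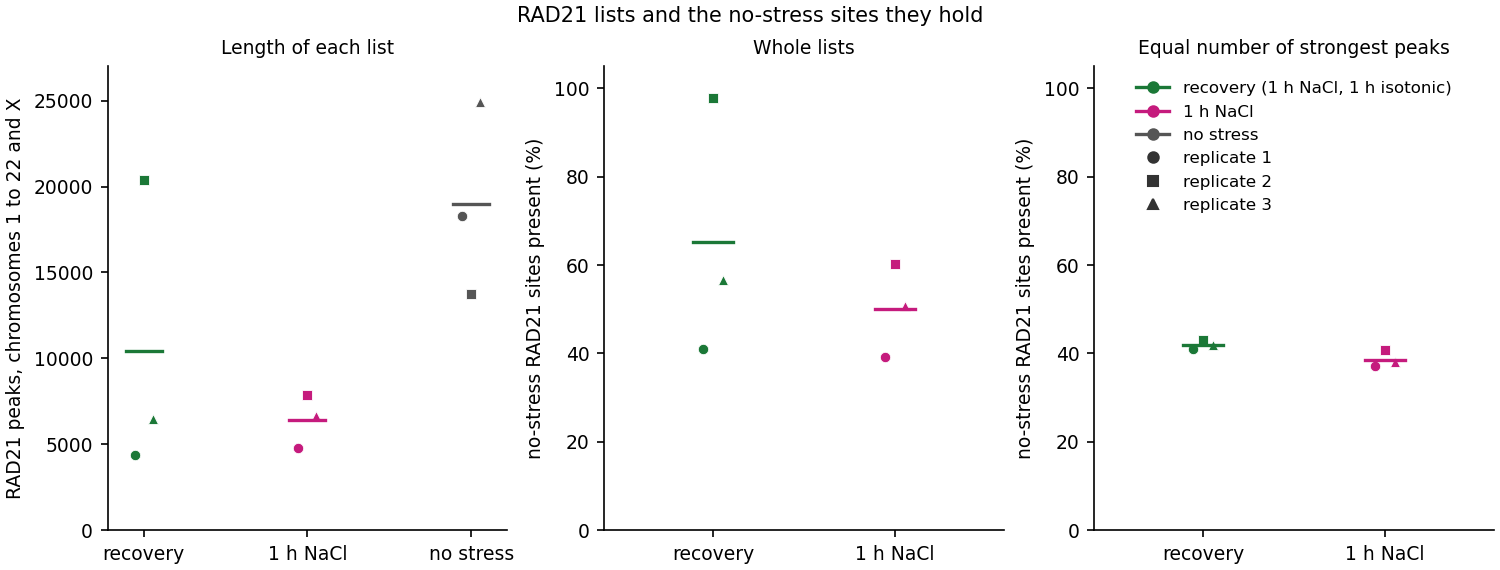
Number of RAD21 peaks per library (left, with no-stress libraries) and the percentage of the 10097 no-stress RAD21 sites that a library held, with whole lists (middle) and with the 4397 strongest peaks of each list (right). Each symbol is a library and each bar the mean of 3: at equal number the 3 recovery libraries lie between 40.9 and 43.0%, above the 37.1 to 40.7% at 1 h NaCl.

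Because list length differed, most comparisons below use the same number of peaks from every list, the 4397 with the highest deposited -log10 p, which is the length of the shortest list. A set of 10097 sites held by all 3 no-stress RAD21 libraries served as the no-stress reference. Of these sites 40.9, 97.8 and 56.7% were present in the whole recovery lists, against 39.2, 60.2 and 50.8% in the whole 1 h lists. The groups overlapped, and the difference of 15.1 percentage points (exact permutation p = 0.6, adjusted p = 0.771) was -1.26 without recovery replicate 2. At equal number the shares were 40.9, 43.0 and 41.8% in recovery, against 37.1, 40.7 and 38.0% at 1 h. Here every recovery library lay above every 1 h library, by a mean of 3.36 points (41.9 ± 1.04% against 38.6 ± 1.89%, SD, n = 3 each; exact permutation p = 0.1, adjusted p = 0.771). The difference was 3.12 points within set 1, 3.84 within set 2 and 3.40 without the library whose tag names triptolide. With peaks ranked by fold enrichment instead, the difference was 4.33 points and the groups overlapped (exact permutation p = 0.2).

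Lists cut to equal number were also more alike on average within a group than between groups, with overlapping ranges. Of the peaks of one list, 72.3 to 74.0% were shared with another recovery list within the recovery group and 69.5 to 78.9% within the 1 h group. Between a recovery list and a 1 h list the shared part was 57.2 to 71.2%, with a mean of 63.8% for the same replicate number and 60.8% for other numbers. The highest value between groups came from recovery replicate 2 and 1 h replicate 2, and it lay above the lowest value within the 1 h group.

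Peaks of the 6 lists were then merged into 21509 sites. Recovery replicate 2 alone held 10105 of them, 49.5% of its own peaks in number. A site present in all 3 recovery and no 1 h library was found 358 times (1.66% of sites), and the opposite pattern 19 times (0.0883%). All 6 libraries shared 2264 sites. Both counts moved with single libraries. The first was 1241 without recovery replicate 1, 609 without recovery replicate 3 and 744 without 1 h replicate 2. The second was 48 without 1 h replicate 1 and 76 without 1 h replicate 2. Without recovery replicate 2 the counts were 359 and 553, so the order of the patterns reversed without that library. At equal number 8276 sites remained, of which 386 (4.66%) were in all recovery and no 1 h lists and 264 (3.19%) in all 1 h and no recovery lists. Leaving out 1 h replicate 2 gave 635 and 670, so the excess of the recovery pattern at equal number did not hold without that library. Without recovery replicate 3 the counts were 551 and 386, and with peaks ranked by fold enrichment they were 291 and 272.

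**Figure D2:**
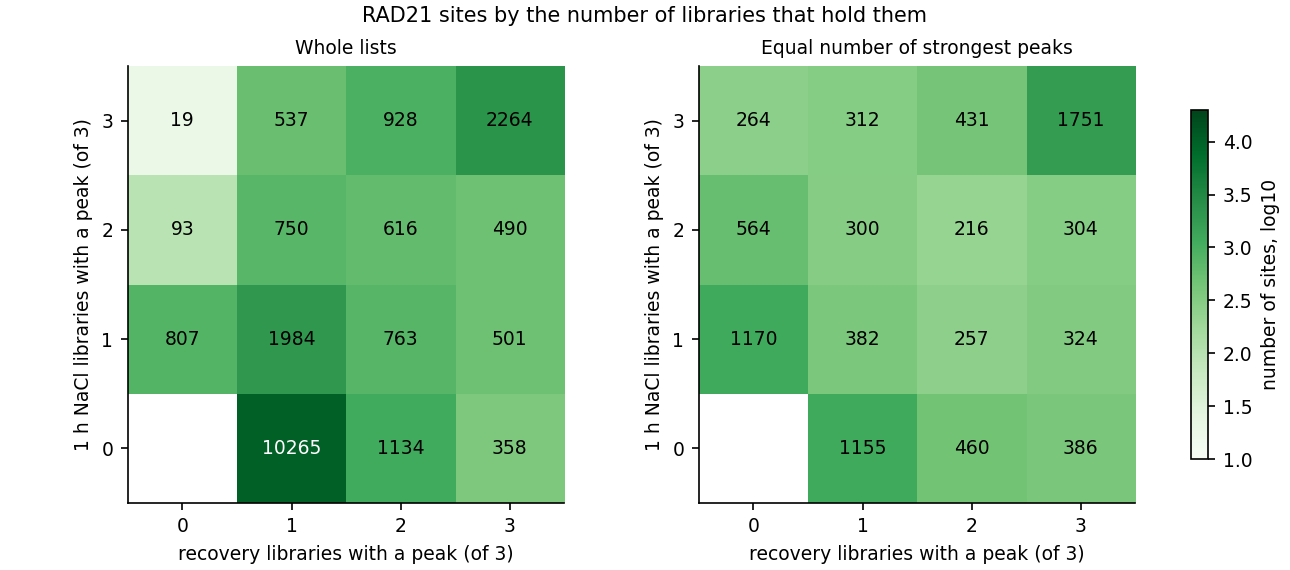
RAD21 sites by the number of recovery libraries (horizontal) and 1 h NaCl libraries (vertical) that hold them, for whole lists (left) and for equal numbers of strongest peaks (right). Cell colour gives the number of sites on a log10 scale. The 10265 sites in a single recovery library and no 1 h library shrink to 1155 at equal number.

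Most of the 358 sites of all recovery and no 1 h libraries were sites of the no-stress state, as were the sites shared by all 6 lists. All of the 358 had a peak in at least 1 no-stress library, and 337 (94.1%) were among the sites of all 3 no-stress libraries. A site of CTCF found in all 3 no-stress CTCF libraries was overlapped by 92.7%. Of the 2264 shared sites, 99.3% were at such no-stress sites and 99.7% at such CTCF sites. In the 3 CTCF lists made at 1 h NaCl, 88.0, 73.5 and 52.8% of them had a CTCF peak, against 100, 99.9 and 98.8% of the 2264 sites shared by all 6 RAD21 lists. The CTCF recovery list, whose tag names triptolide, had a peak at 99.4% of them. The CTCF lists had 35374, 34205 and 22018 peaks at 1 h and 46377 in recovery, and these 4 shares stood in the order of list length. The no-stress CTCF lists, with 59843, 43835 and 38571 peaks, had a peak at 99.4, 94.1 and 98.3% of the 358. How far list length set the shares was not tested. Of the 19 sites of all 1 h and no recovery libraries, 2 were among the no-stress sites, because no-stress replicate 2 listed only 3 of them while replicates 1 and 3 listed 14 and 18. All but 1 of the 19 had a peak in at least 1 no-stress library. The further RAD21 recovery library titled with triptolide held 18 of those 19 and all of the 358. Its list of 22967 peaks was longer than any of the 6 compared.

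The CTCF lists divided the no-stress RAD21 sites into classes that do not use the RAD21 lists compared. The classes do use CTCF at 1 h NaCl, the state of the stressed group, so they are not independent of that state. CTCF was present without stress and in all 3 CTCF lists of 1 h NaCl at 7560 of the 10097 sites, and it was missing from 1 or more of those lists at 1803 sites. At equal number, 23.8, 20.6 and 24.7% of the sites with CTCF missing held a RAD21 peak in recovery, against 5.16, 6.66 and 5.94% at 1 h NaCl and 23.4, 20.7 and 26.8% without stress. The lowest recovery library was 3.10 times the highest 1 h library, and the recovery and no-stress ranges overlapped. At the sites where CTCF was held, the shares were 47.6, 51.3 and 49.4% in recovery, against 47.7, 51.9 and 48.9% at 1 h and 50.5, 49.1 and 48.6% without stress, with the groups overlapping. The difference between recovery and 1 h libraries was 17.1 points at sites with CTCF missing and -0.079 points at sites with CTCF held. With a fixed number of peaks, a higher share in one class leaves fewer peaks for other sites. In whole lists the differences were 40.5 points with CTCF missing and 7.77 points with CTCF held, the latter with the groups overlapping.

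Within a library the class with CTCF missing minus the class with CTCF held gave -26.4 ± 3.72 points in recovery and -43.6 ± 1.42 points at 1 h (SD, n = 3 each), a difference of 17.2 points. The groups did not overlap (exact 2-sided permutation test, p = 0.1, the smallest possible; adjusted p = 0.55 when 2 such contrasts are counted with the 9 tests). That difference was 16.7 points within set 1, 18.3 within set 2, 19.3 without recovery replicate 2 and 16.4 without replicate 3. CTCF list 3 of 1 h NaCl decided most of the class, since it had a peak at only 7.16% of the 1803 sites while lists 1 and 2 had one at 88.9 and 71.0%. It was also the shortest of these lists, with 22018 peaks against 35374 and 34205. A missing CTCF peak is a site below the threshold of that list, and how far list length set the class was not tested. Classes made from single CTCF lists gave the same order. At the 523 sites absent from CTCF list 2, RAD21 was present at 26.2, 29.5 and 28.9% in recovery, against 0.956, 4.02 and 0.574% at 1 h. At the 200 sites absent from CTCF list 1, the shares were 19.5, 13.0 and 17.5% in recovery, against 0.5, 0 and 0% at 1 h. At the 1674 sites absent from CTCF list 3 they lay between 17.4 and 23.1% in recovery, against 5.44, 6.39 and 6.27% at 1 h.

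At equal number the contrast was present at every strength of the no-stress peak. Among the 193 sites with CTCF missing in the highest quintile of no-stress fold enrichment, 68.4, 68.4 and 78.2% were present in recovery, against 20.2, 28.0 and 21.2% at 1 h and 86.5, 64.8 and 92.2% without stress. In the next quintile, of 301 sites, the shares were 39.5, 30.9 and 45.9% in recovery, against 6.98, 9.64 and 8.31% at 1 h. The lowest quintile had 5.97, 7.79 and 2.34% in recovery, against 0.260, 0.779 and 0.520% at 1 h. At equal number the recovery and 1 h libraries did not overlap in any of the 5 quintiles. In whole lists they overlapped in the lowest 2, with 5.97, 89.6 and 9.87% in recovery, against 0.779, 7.01 and 1.82% at 1 h in the lowest. With CTCF held, they overlapped in all 5 quintiles, and the highest quintile had 87.7, 90.8 and 91.2% in recovery, against 85.4, 88.4 and 86.8% at 1 h.

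**Figure D3:**
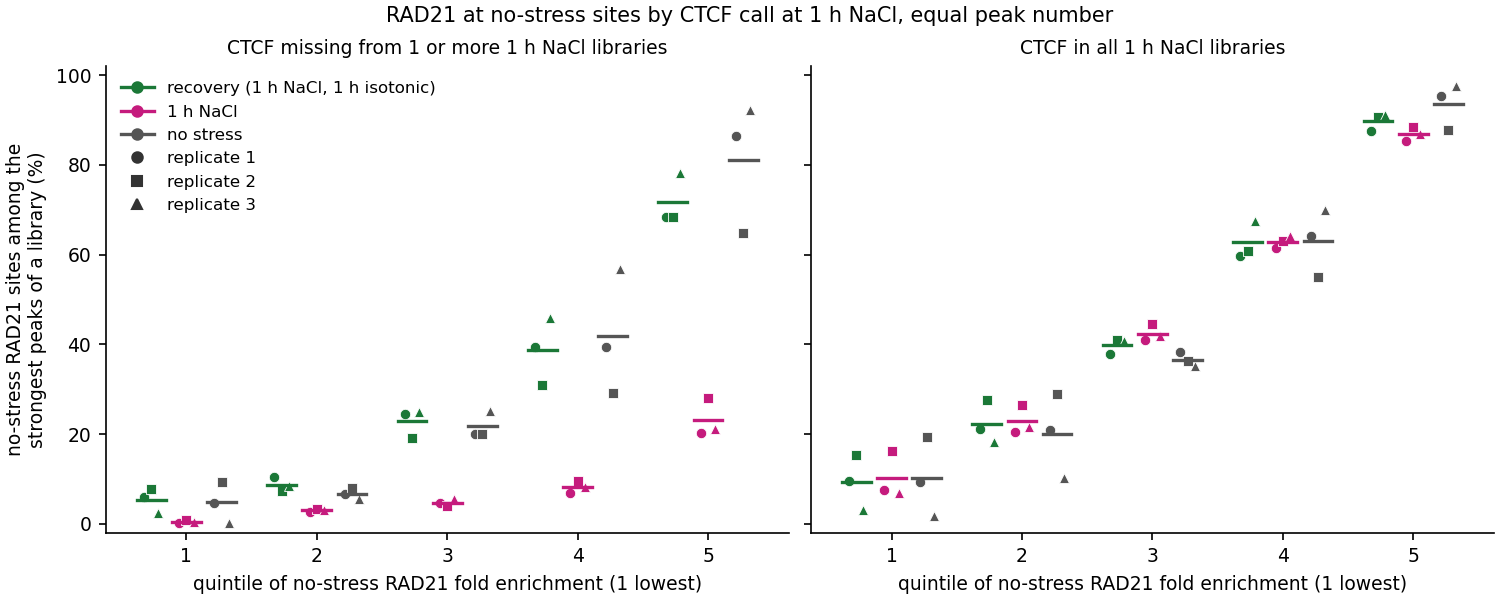
Percentage of no-stress RAD21 sites found among the 4397 strongest RAD21 peaks of each library, by quintile of no-stress RAD21 fold enrichment, where CTCF was missing from 1 or more of the 3 CTCF lists at 1 h NaCl (left) and where it was in all of them (right). Symbols are libraries and bars means of 3. On the left the recovery libraries lie above the 1 h libraries in every quintile, up to 78.2 against 28.0% in quintile 5, and on the right the groups overlap.

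Of the 10097 no-stress sites, 3271 were absent from all 3 whole 1 h lists. Among these, 335 were present in all 3 recovery lists, 790 in 2, 1973 in 1 and 173 in none. The single libraries held 15.9, 94.4 and 29.0% of them in recovery replicates 1 to 3, so the 94.7% found in at least 1 recovery list came almost wholly from replicate 2. The RAD21 recovery library titled with triptolide held 97.6%.

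Peaks near gene starts made up more of the strongest peaks in recovery than at 1 h within each set. Within 1 kb of a gene start lay 11.3, 14.0 and 9.10% of the strongest peaks in recovery, against 5.66, 11.7 and 5.16% at 1 h and 12.35, 17.15 and 7.35% without stress. Replicate 2 was the highest of its group in all 3 conditions, and the groups overlapped. Within 1 kb of either gene end the shares were 16.3, 19.5 and 13.1% in recovery, against 9.37, 16.9 and 9.21% at 1 h. The mean difference was 4.50 points (16.3 ± 3.21% against 11.8 ± 4.38%, SD, n = 3 each; exact permutation p = 0.3, adjusted p = 0.771), 4.80 within set 1, 3.91 within set 2 and 6.10 without recovery replicate 3. Between genes lay 49.8, 47.6 and 50.8% in recovery, against 55.2, 50.8 and 54.7% at 1 h. Gene bodies and 3′ ends differed by less than the SD, with means of 34.3 ± 1.65% in recovery and 34.6 ± 1.97% at 1 h for bodies and 2.64 ± 0.395% and 2.49 ± 0.171% for 3′ ends.

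**Figure D4:**
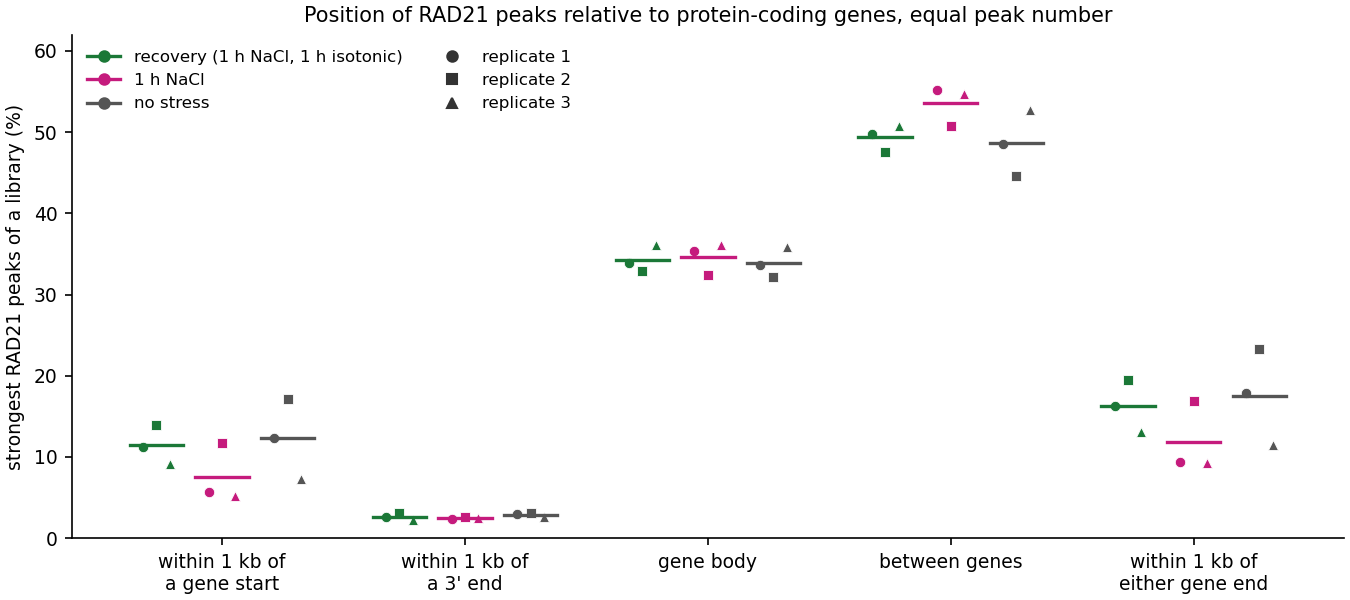
Position of the 4397 strongest RAD21 peaks of each library relative to protein-coding genes, as a percentage of those peaks. Symbols are libraries and bars means of 3. Within 1 kb of a gene start, recovery averages 11.4% and 1 h NaCl 7.50%.

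The same was seen from the no-stress sites. Of the 1229 no-stress sites near a gene start, 39.6, 48.2 and 32.8% were present in recovery at equal number, against 20.2, 35.6 and 18.2% at 1 h. Between genes, 42.4, 43.4 and 44.6% of 4783 sites were present in recovery, against 42.5, 44.3 and 43.5% at 1 h. The contrast between sites near a start and all others was 13.9 points higher in recovery (exact permutation p = 0.2, adjusted p = 0.55 over the 11 tests), 14.7 within set 1 and 12.2 within set 2, with the groups overlapping. Gene starts and CTCF class were distinct features. CTCF was missing from 1 or more 1 h lists at 10.7% of the no-stress sites near starts and at 18.8% of the others. Near starts with CTCF held, 49.5, 60.3 and 43.9% of 808 sites were present in recovery, against 29.7, 49.8 and 27.2% at 1 h. Away from starts with CTCF missing, 23.3, 19.0 and 24.8% of 1671 sites were present in recovery, against 5.39, 6.28 and 6.28% at 1 h. Away from starts with CTCF held, the shares of 6752 sites were 47.4, 50.2 and 50.0% in recovery, against 49.85, 52.1 and 51.5% at 1 h. Both features marked sites with a higher share in recovery, the CTCF class with separated groups and the gene starts with CTCF held with overlapping ones.

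Nearly all strong peaks of both groups lay on CTCF sites. At equal number 96.1, 97.6 and 98.6% of recovery peaks overlapped a no-stress CTCF site, against 97.8, 96.7 and 98.8% at 1 h (exact permutation p = 0.7, adjusted p = 0.788). In whole lists the shares were 96.1, 76.5 and 95.8% in recovery, against 97.0, 88.0 and 96.7% at 1 h (p = 0.5, exact permutation, adjusted p = 0.771), the lowest value of each group belonging to its longest list. The median distance of a RAD21 summit from the CTCF summit was 36, 37 and 40 bp in recovery, against 32, 36 and 33 bp at 1 h (exact permutation p = 0.2, adjusted p = 0.771). The groups met at 36 bp, and without recovery replicate 3 the difference in medians was 2.83 bp instead of 4 bp. At the 2264 shared sites the median peak width was 307, 474 and 444 bp in recovery, against 312, 402 and 399 bp at 1 h (exact permutation p = 0.6, adjusted p = 0.771).

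At the 2264 shared sites the order of fold enrichments was compared by rank within each library. Ranks of the 3 recovery libraries all exceeded those of the 3 libraries at 1 h at 319 sites (14.1%), and all were lower at 322 (14.2%). The first count was 498 without recovery replicate 1, 562 without recovery replicate 3 and 527 without 1 h replicate 2, and the second 501, 492 and 497 without the same libraries. Gene starts lay within 1 kb of 10.0% of those 319 and 4.35% of the 322, against 7.11% of all shared sites. The rank order of recovery resembled the no-stress order of the same replicate number, with Spearman rho of 0.70, 0.83 and 0.77 for recovery replicates 1 to 3, against 0.49, 0.58 and 0.73 for the 1 h libraries (2249 to 2264 sites, a description across sites that share library and depth). Against no-stress replicate 3, however, recovery replicates 1 and 2 had 0.48 and 0.39, below the 0.62 and 0.42 of the 1 h libraries with the same numbers.

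Among named genes, the sites of all recovery and no 1 h libraries with the highest lowest percentile included those near RAMP1, HTR3D, OR52K1, LOC124900192, FLOT2, PKM, CA2, SDC1 and AKR1A1. The site at chr2:237858261-237858768 (hg38), 112 bp from an end of RAMP1, which encodes a receptor activity-modifying protein of calcitonin-family receptors, had a fold enrichment of 8.32, 23.3 and 7.14 in recovery, against no peak at 1 h and 21.6, 15.8 and 24.5 without stress. CTCF had a peak there in all 3 no-stress lists and in 1 of the 3 lists at 1 h. The site at chr3:184040004-184040438 near the 3′ end of HTR3D, a serotonin receptor subunit, had 8.31, 21.7 and 6.23 in recovery, against no peak at 1 h and 24.0, 13.1 and 20.1 without stress. CTCF was in 2 of the 3 lists at 1 h there. These sites were strong without stress and were listed in every recovery library.

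The site over the 3′ end of FLOT2, which encodes the membrane scaffold flotillin, had 7.00, 15.4 and 5.75 in recovery, against no peak at 1 h. PKM, pyruvate kinase of glycolysis, had 6.60, 13.6 and 8.22 in recovery near its 3′ end, against no peak at 1 h and 14.2, 12.9 and 13.6 without stress. The site over the start of SDC1, the cell surface proteoglycan syndecan, had 7.51, 18.7 and 5.19 in recovery, against no peak at 1 h. At PKM and SDC1 CTCF kept its peak in all 3 lists at 1 h. Among the 358, 79 (22.1%) were within 1 kb of a gene end and 53 (14.8%) within 1 kb of a start, against 11.8 and 7.11% of the 2264 shared sites.

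With the opposite pattern, 2 of the 19 sites were within 1 kb of an end of a gene. The site 760 bp from the 3′ end of BCO2, a carotenoid-cleaving oxygenase, had no peak in recovery, against 4.87, 4.39 and 9.50 at 1 h. The site over the start of SPECC1 had no peak in recovery, against 3.58, 4.47 and 2.41 at 1 h. It had no RAD21 peak in any no-stress library, although CTCF had a peak there in all 3 no-stress lists and all 3 lists at 1 h.

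Sites of all 6 libraries were led by DHX8, NRSN2, CYB5R2, SLITRK3, THPO, COPZ2, CALB2, GRM4, BDH1 and PITX3, each with CTCF in all 3 lists at 1 h. The site over the start of DHX8, an RNA helicase of splicing, had 14.8, 50.5 and 13.1 in recovery, against 22.95, 46.9 and 22.95 at 1 h. That near the 3′ end of BDH1, a ketone body enzyme, had 15.7, 46.4 and 12.8 in recovery, against 11.7, 25.6 and 10.2 at 1 h. Fold enrichments of both groups overlapped at both genes.

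Shared sites with separated, higher ranks in recovery were led by PDE5A, AHCY, MAML2, ANKRD62, BCAS4, SCNN1G, CNTFR, FGF18, HIC1 and VPS36. The site over the start of PDE5A, a cyclic GMP phosphodiesterase, had 14.0, 43.3 and 9.56 in recovery, against 4.55, 7.50 and 4.86 at 1 h and 22.1, 31.9 and 17.1 without stress. Its mean rank of 2264 was 2057 in recovery and 302.5 at 1 h. The site over the start of MAML2, a coactivator of Notch signalling, had 16.6, 42.4 and 13.9 in recovery, against 5.74, 13.5 and 5.28 at 1 h. At both starts the lowest recovery value lay above the highest value at 1 h. Separated, lower ranks in recovery were led by CSMD3, BLK, AVPR1B, PRDX2, GRIK4, PLCG2, ADGRG5, STAT6, KY and GPR142. PRDX2, a peroxiredoxin, had 5.76, 22.2 and 5.04 in recovery at its 3′ end, against 9.95, 17.0 and 10.5 at 1 h, and its mean rank was 597.0 in recovery and 1655 at 1 h. Of the 10 sites with higher ranks 8 were named by a gene start, and of the 10 with lower ranks 4 were. The end had no strand, and may be a start, at SCNN1G and HIC1 among the higher and at CSMD3, BLK and ADGRG5 among the lower. Of all 2264 shared sites 161 lay within 1 kb of a start and 268 within 1 kb of a gene end.

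Genes were also counted by a RAD21 peak within 1 kb of either end. Of 19970 protein-coding genes, 72 (0.361%) had such a peak in all recovery and no 1 h libraries, and 1 (0.00501%) had it the other way. In any recovery and no 1 h library 2736 genes (13.7%) had it. The site counts of the first 2 patterns reversed in order without recovery replicate 2, and whether the gene counts do so was not tested. Among the 16 gene lists examined, 2 genes were of the first kind, KLF4 of the immediate early list and PKM of the glycolysis and housekeeping list. None of the list genes was of the second kind.

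Immediate early genes, which encode transcription factors and feedback regulators switched on within minutes by MAP kinase signals, included many genes whose RAD21 peak was missing at 1 h. Of the 29 genes of this list, 6, 20 and 8 had a peak in recovery replicates 1 to 3, against 0, 6 and 1 at 1 h. Over all 19970 genes the numbers were 767, 4300 and 861 in recovery, against 468, 1759 and 609 at 1 h. At equal peak number 6, 6 and 4 of the 29 had a peak in recovery, against 0, 3 and 0 at 1 h. All genes then gave 767, 932 and 628 in recovery, against 445, 804 and 439 at 1 h. In any recovery and no 1 h library there were 14 of 29 (48.3%, against 13.7% of all genes), 9 of which rested on recovery replicate 2 alone. The list was richer in RAD21 peaks in any case, with 20 of 29 genes in any of the 6 lists, against 4571 of 19970. Among genes with a peak in any of the 6 lists the numbers were 14 of 20, against 2736 of 4571, which lie closer together. Of the 12 list genes with a peak in all no-stress libraries, 7 had none at 1 h (58.3%, against 39.3% of 1875 such genes), and recovery held all of these 7 in at least 1 library. Over all genes it held 719 of 737, 718 of them in replicate 2, so this count is near the background.

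KLF4, a zinc finger transcription factor, had a fold enrichment of 3.89, 11.3 and 2.44 in recovery, against no peak at 1 h and 6.73, 5.59 and 4.29 without stress. MYC, the transcription factor of cell growth, had 3.78, 20.9 and 5.43 in recovery, against a peak of 3.99 in replicate 2 alone at 1 h. DUSP10, a phosphatase of stress-activated MAP kinases, had 4.84, 13.2 and 3.16 in recovery, against 2.21 in replicate 2 alone at 1 h. At equal number KLF4, MYC and DUSP10 were among the strongest peaks of all 3 recovery libraries and of none at 1 h. EGR2 had 5.46, 14.2 and 3.70 in recovery, against 5.38 and 2.31 in replicates 2 and 3 at 1 h. DUSP1 and DUSP6, phosphatases of the same family, and JUN, a subunit of AP-1, had a peak in recovery replicates 2 and 3 and in no library at 1 h, so without replicate 3 they rested on replicate 2 alone, with 6.99 and 2.16 for DUSP1, 5.73 and 2.43 for DUSP6 and 6.74 and 3.36 for JUN. FOS, JUNB and IER2 had one in recovery replicate 2 alone.

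**Figure D5:**
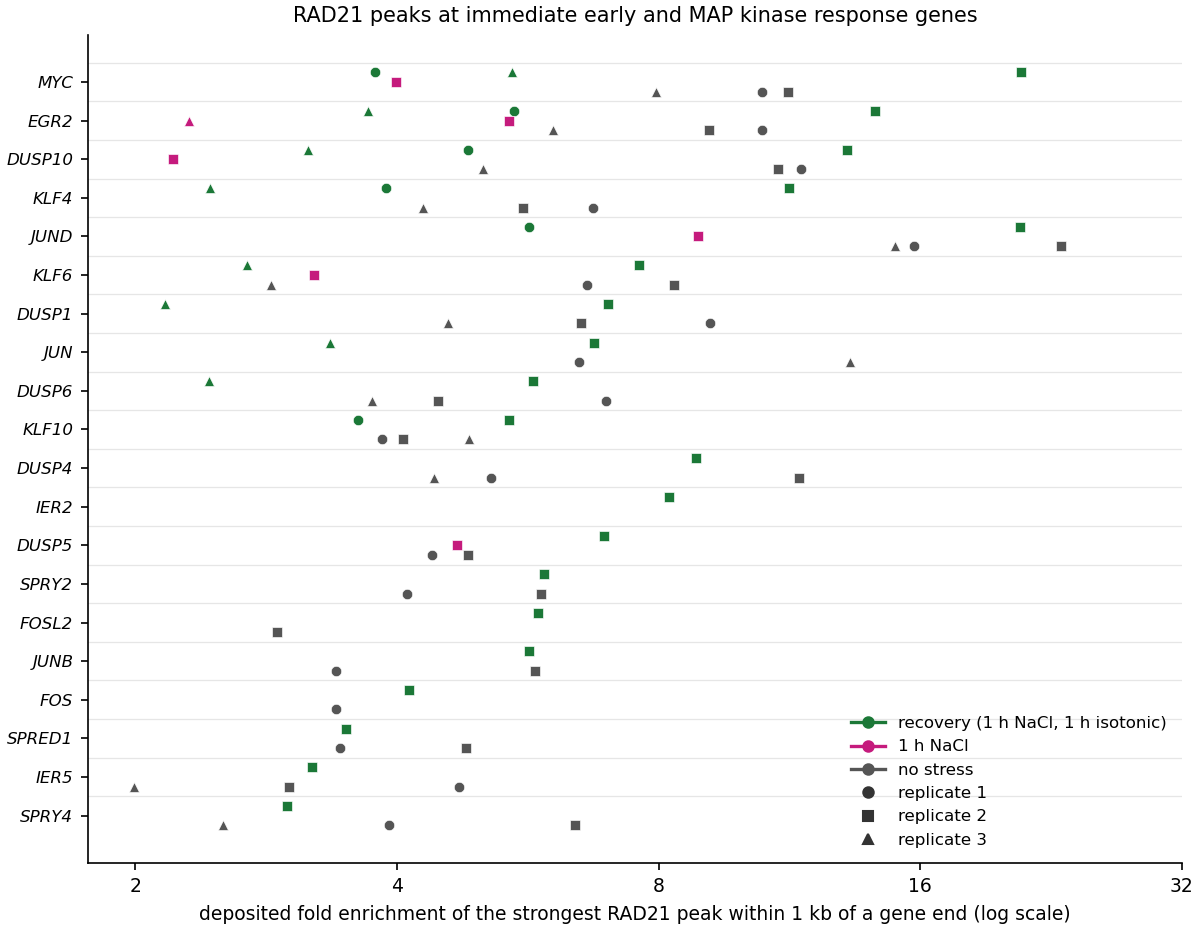
Deposited fold enrichment (log scale) of the strongest RAD21 peak within 1 kb of a gene end at the 20 immediate early and MAP kinase response genes with a peak in recovery or at 1 h NaCl. Each symbol is a library, and a library without a symbol had no peak there. The 1 h libraries have a peak at 6 of the 20 genes, all 6 in replicate 2 and 1 of them also in replicate 3, and KLF4 has one in all 3 recovery and in no 1 h libraries. No-stress libraries are drawn below them.

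Over all genes the shares with a peak were 3.84, 21.5 and 4.31% in recovery, against 2.34, 8.81 and 3.05% at 1 h. Genes of the osmolyte transport and NFAT5 pathway, by which cells adapt to high salt, had a peak in 1, 9 and 1 of 18 genes in recovery, against 0, 4 and 0 at 1 h. SLC12A2, the sodium-potassium-chloride cotransporter, had 4.43, 9.95 and 2.52 in recovery, against 3.19 in replicate 2 alone at 1 h. NFAT5, the osmosensitive transcription factor, and SLC6A6, the taurine transporter, had a peak in recovery replicate 2 alone, of 7.67 and 8.76, and at 1 h NFAT5 had one of 3.56 in replicate 2. Of the 18 genes of luminal breast identity, 2, 11 and 2 had a peak in recovery, against 0, 7 and 1 at 1 h, and at equal number 2, 0 and 2, against 0, 1 and 0. KRT18, a luminal keratin, had 4.65, 9.35 and 4.81 in recovery, against 4.79 in replicate 2 alone at 1 h. Of the 15 oestrogen and progesterone targets, 0, 9 and 0 had a peak in recovery, against 0, 2 and 0 at 1 h, so that the counts of this list came from replicate 2 of each group.

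Of 20 genes for cohesin, CTCF and loop factors, 3, 9 and 2 had a peak in recovery, against 1, 4 and 2 at 1 h, and PDS5B, a cohesin regulator, had one in all 6 libraries. Among 14 genes of transcription elongation and termination the numbers were 3, 5 and 3 in recovery, against 1, 4 and 1 at 1 h, and among 18 imprinted genes 2, 6 and 2, against 1, 1 and 1. CPSF1, a subunit of the 3′ end cleavage machinery, was among the strongest peaks of all 3 recovery libraries and of none at 1 h at equal number, and in whole lists it had 6.29, 18.6 and 3.10 in recovery, against 3.09 in replicate 2 alone at 1 h. Of the 5 imprinted genes with a peak in all no-stress libraries, 4 had none at 1 h, against 39.3% of such genes overall. SGCE and PEG10, both among these 4, had the same values in every library, so the same peak is counted for each. The 19 genes of the HOX clusters had 1, 5 and 3 in recovery, against 3, 5 and 3 at 1 h. At equal number HOXB13 and HOXC10 were among the strongest peaks of all 3 libraries at 1 h and of none in recovery. In whole lists both kept a peak in recovery replicates 2 and 3. HOXB13 had 13.7 and 4.18 there, against 11.0, 15.5 and 10.4 at 1 h, and HOXC10 had 13.5 and 4.31, against 8.67, 16.1 and 7.81. Integrated stress response genes had 1, 3 and 1 of 12 in recovery, against 0, 2 and 0 at 1 h. Heat shock chaperones had 0, 1 and 0 of 12, against 0, 0 and 0, and the glycolysis and housekeeping list had 1, 2 and 2 of 12, against 0, 0 and 0. Clustered protocadherins had 0, 6 and 0 of 18 in recovery, against 0, 5 and 0 at 1 h, and cell cycle genes had 0, 3 and 0 of 16, against 0, 0 and 0. PCDHGA1, PCDHGA3, PCDHGB4, PCDHGC3 and PCDHGC5 had the same fold enrichment in every library, so the same peak is counted for each of them. Markers of other cell types served as lists without a tie to stress. In recovery 1, 2 and 1 of 12 haematopoietic, 2, 3 and 3 of 12 fibroblast and 1, 2 and 1 of 12 neuronal and muscle markers had a peak, against 1, 1 and 1, 2, 3 and 3, and 0, 1 and 0 at 1 h.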

How the data were processed

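RAD21 chromatin immunoprecipitation libraries of T47D cells were grouped by title, and the 6 lists of recovery and 1 h NaCl were compared with 3 RAD21 and 3 CTCF lists without stress, 3 CTCF lists at 1 h, 1 CTCF list of recovery and 1 RAD21 recovery list titled with triptolide. Per the submitters' processing notes, hg38 was the build and the tools were MACS2, Bowtie2 (2.2.6) and cutadapt. For set 1 the authors' notes also list HOMER and DiffBind (2.4.6). What each tool did, the threshold of the peak caller and its control were not given in the sources used here. Each list came from a single library. The deposited fold enrichment is the ratio of pileup to the background the caller assumed. With it, the deposited -log10 p and -log10 q values served to order, describe and filter the peaks of each list. Fold enrichment and -log10 p also gave the background pileup stated below. The series text gives a slightly lower NaCl concentration than the titles, which were followed. Read totals were not used here, so the depth is unknown. A background pileup recovered from fold enrichment and -log10 p (most common value, tolerance 0.005) was 0.80, 0.57 and 1.97 in recovery and 1.05, 0.78 and 1.85 at 1 h, the last from few peaks (3.81% with a whole pileup).

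Peaks on chromosomes 1 to 22 and X were read with scipy 1.17.1 and pandas 2.3.3 under Python 3.11.15. An overlap of 1 bp counted as shared, and overlapping peaks were merged into sites. Equal number means the 4397 peaks of highest -log10 p. Gene positions (19970 protein-coding genes) are those of RefSeq on GRCh38.p14 and strand came from its promoter windows (15811 genes), and an end without strand is called an end. CTCF sites were those of all 3 no-stress CTCF lists (25605). Shares were compared by exact 2-sided permutation tests over 20 arrangements, with Benjamini-Hochberg adjustment over 9 tests, or over 11 with the 2 contrasts between site classes. Those classes by CTCF at 1 h, and the contrasts, were added after the lists had been read. No lists were identical (0 pairs). The scripts were tested on simulated lists. The members and gene lists were chosen with earlier results of these data known. Named genes have a site within 1 kb of an end and are the up to 10 sites per pattern whose lowest fold enrichment percentile over the libraries is highest, the up to 10 shared sites per direction with the largest difference in mean rank among those whose ranks do not overlap, and members of the gene lists. A gene that meets this rule is not reported here. The promoter windows shown were chosen by a separate rule, the 2 sites of each kind with the highest such percentile outside chromosome 8 that have every summit and a motif match in the window. Libraries were not paired by replicate number in the main tests. Alternatives tried were leaving out each library, each submission set alone, stricter peak thresholds, other overlap rules, another ranking, 2.5 kb around gene ends, CTCF sites of any no-stress list and a replicate block.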

Additional observations from a re-analysis of the deposited data

How the results depend on the processing

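None of the 124 p-values computed for the main results and the alternatives was below 0.05, the smallest being 0.1. With so few libraries none could be below 0.05. Of the 192 values of the alternatives, 159 kept their direction or stayed within 1.5 times the count. Stricter peaks, other overlap rules, another ranking and 2.5 kb around gene ends reversed nothing, and the overlap rules do not enter the gene end shares. Leaving out 1 library at a time gave -0.23 to 0.87 for the log2 ratio of peak number, -1.26 to 27.2 points for the no-stress sites in whole lists, 2.59 to 4.41 at equal number, -7.74 to 2.07 for CTCF sites in whole lists and -0.887 to 0.341 at equal number, where recovery replicate 1 or 1 h replicate 3 turned the sign. CTCF sites of any no-stress library gave 0 points at equal number. The gap between CTCF classes stayed between 15.9 and 19.3 points, and that for gene starts between 9.95 and 18.9. Sites of all recovery and no 1 h libraries numbered 359 to 1241 and the opposite 20 to 553, and at equal number 420 to 635 and 333 to 670. Separated ranks numbered 391 to 562 higher and 420 to 501 lower in recovery. Within set 1 these 6 counts were 740, 29, 603, 464, 664 and 616, and within set 2, with 1 library a group, 2189, 2326, 1640, 1640, 2127 and 2174. The log2 ratio of peak number was -0.030 within set 2. Fewer libraries make such counts larger by construction. Deviations from the group means in presence over sites had r of -0.024, -0.072 and 0.10 for same-numbered libraries, and -0.10 to 0.11 for others. The numbers were not taken to pair the libraries, but this check cannot show that pairing is absent. Recovery replicate 2 alone held 10105 of the sites, where no 1 h library deviates. Replicate 2 had the highest gene start share in each group. The rank order of 1 h replicate 3 had a rho of 0.73 with no-stress replicate 3 and 0.19 with replicate 2. Ranking by fold enrichment gave 291 and 272 sites at equal number. With the replicate block (exact sign-flip permutation, smallest p 0.25) the gap between CTCF classes was 17.2 points (p = 0.25), no-stress sites at equal number 3.36 points (p = 0.25) and peak number 0.41 (p = 1), and no call changed. Peaks below the threshold are not in the lists, so list length limits every count of missing sites.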
